A study of Homo sapiens with 192 samples.

Results

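Chromatin at 60 genes of the cell cycle was followed in single nuclei of HAP1 cells: 28 genes of DNA replication, 22 genes of mitosis and 10 regulators that act before mitosis. A gene was represented by every feature of the deposited peak count table that lay within 1000 bp of any of its GENCODE transcription starts on hg38. This gave 88 of the 80971 features of the series. At least 1 feature was found for 51 of the 60 genes (85%), whereas 55.6% of all 20007 protein-coding genes had a feature by the same rule. The background counts every protein-coding gene, whether or not HAP1 cells use it.

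The nuclei came from a test of whether CASB, a sample barcode of concanavalin A, streptavidin and single-stranded DNA, disturbs chromatin profiles. CASB-labeled and unlabeled HAP1 nuclei were mixed in equal number, cut and tagged together by the Tn5 transposase, and sorted singly into 2 plates of 96 wells for single-nucleus ATAC-seq (snATAC-seq). The label of single nuclei was not used here. Each plate is therefore 1 mixed sample, nuclei are no replicates, and no test was made. HAP1 is a near-haploid human line that descends from the chronic myeloid leukemia line KBM-7 and grows attached to the dish, and no treatment was given to any nucleus besides the labeling. None of 8 blood cell marker genes, among them PTPRC, CD34 and SPI1, had a feature. All 8 genes typical of adherent cells, among them VIM and CD44, had at least 1, where 55.6% of all protein-coding genes did. These lists were chosen with earlier results of these data known.

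Replication begins when the origin recognition complex, CDC6 and CDT1 load the MCM helicase onto DNA, and it proceeds when CDC45 and the GINS complex activate that helicase and polymerases follow it. Mitosis is driven by CDK1 with B-type cyclins and by the Aurora and Polo kinases, and it is held back by the spindle checkpoint until chromosomes are attached. The promoters of replication genes are classically bound by E2F factors, which switch them on as cells enter S phase, and those of mitotic genes by the DREAM and MMB complexes at the cell cycle genes homology region (CHR), often beside a cell cycle-dependent element (CDE). NF-Y binds CCAAT boxes and is common to many promoters of the later group.

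These words were looked up on both strands of the RefSeq promoters (GRCh38.p14), from 250 bases before to 50 bases after the transcription start. A promoter was given for 49 of the 60 genes, and it started at the canonical GENCODE start in 46 of them. MCM4, MCM5, GINS4, CCND1, CCNE2, CDK2, AURKA, TTK, BIRC5, TPX2 and FOXM1 were not looked up. An E2F word was TTTCCCGC, TTTGGCGC, TTTCGCGC or TTTGCCGC. The CHR word was TTTGAA, and the CDE-CHR pattern was CGG, any 5 bases and TTGAA, so that a match of this pattern can contain a CHR word. Positions are counted from the start base as 0, with upstream bases negative.

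E2F words stood in 12 of 25 replication promoters (48%), in 2 of 17 mitotic promoters (11.8%) and in 4.57% of all 15345 protein-coding promoters looked up. Each of the helicase genes MCM2, MCM3, MCM6 and MCM7 had at least 1, as did the licensing factors CDC6 and CDT1, the helicase activators GINS1, GINS2 and GINS3, ORC3, the polymerase subunit POLE and the thymidylate synthase gene TYMS. The stretches below show the E2F word nearest the start (capitals) in 7 replication genes, each read on the strand that spells the word. They cover loading, helicase, activation and synthesis and were chosen after the matches were seen.
MCM2, chr3:127598402-127598431, plus strand: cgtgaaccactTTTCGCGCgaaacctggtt
MCM3, chr6:52284728-52284757, minus strand: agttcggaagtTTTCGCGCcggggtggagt
MCM6, chr2:135876511-135876540, plus strand: ggagctggagaTTTCGCGCcaaacctgacc
MCM7, chr7:100101388-100101417, minus strand: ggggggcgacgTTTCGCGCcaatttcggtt
CDC6, chr17:40287875-40287904, plus strand: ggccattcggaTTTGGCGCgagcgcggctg
GINS2, chr16:85688967-85688996, plus strand: gcggccgccgtTTTCCCGCcacggcgagag
POLE, chr12:132687342-132687371, plus strand: caggggagaaaTTTGGCGCgctcccaccca

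The MCM6 promoter held 4 matches, in 2 places where words on opposite strands overlap, the nearer from base -90 to base -79. In MCM2, words on opposite strands overlapped from base 2 to base 13. MCM3 held a word from base -174 to base -167 and another across the start itself. MCM7 had a word that ended at base -2. Among the regulators, E2F1, E2F3 and CDC25A held an E2F word, 3 of 7 genes looked up.

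The CHR word showed the reverse distribution. It stood in 13 of 17 mitotic promoters (76.5%), in 1 of 25 replication promoters (4%, RRM1 alone) and in 11.6% of all promoters looked up. The CDE-CHR pattern was found in 3 mitotic promoters (17.6%), in 0 replication promoters and in 0.417% of all. These 3 were CDK1, the kinase that drives mitosis, CDC25C, the phosphatase that activates it, and CENPF, a kinetochore protein, and the S phase cyclin CCNA2 held it with CTTGAA in place of TTTGAA. The pattern (capitals) is shown in all 4 genes, and its spacing is fixed by the search. In CENPF it lay after the start, from base 33 to base 45, and in the others before the start.
CDK1, chr10:60778450-60778478, plus strand: ctttagcgCGGTGAGTTTGAAactgctcg
CDC25C, chr5:138331821-138331849, minus strand: tgggctggCGGAAGGTTTGAAtggtcaac
CENPF, chr1:214603220-214603244, plus strand: ggcggctgCGGGCAGTTTGAAttag
CCNA2, chr4:121823898-121823926, minus strand: aatagtcgCGGGATACTTGAActgcaaga

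Most mitotic genes held the CHR word without the full pattern. It is shown (capitals) in CCNB2, a mitotic cyclin, the kinase PLK1, the checkpoint gene BUB1B, the motor KIF23 and the proliferation marker MKI67. These were again chosen after the matches were seen.
CCNB2, chr15:59105105-59105134, plus strand: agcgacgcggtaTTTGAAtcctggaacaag
PLK1, chr16:23678848-23678877, plus strand: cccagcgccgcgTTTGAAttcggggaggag
BUB1B, chr15:40161034-40161063, plus strand: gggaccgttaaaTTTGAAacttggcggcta
KIF23, chr15:69414282-69414311, plus strand: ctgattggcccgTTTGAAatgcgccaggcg
MKI67, chr10:128126435-128126464, minus strand: tcttcgttttcgTTTGAAttgggcgggcgc

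The words in CCNB2, PLK1 and MKI67 all began at base -29. In 10 of the 17 mitotic promoters (58.8%) a CHR word lay wholly within the 70 bases before the start, a window set after the positions were seen, and 2.21% of all promoters had such a word. Of 36 other mitotic promoters, described next, 11 had it (30.6%). The same window held a CHR word in 0 of 25 replication promoters and an E2F word in 6 of 25 (24%), where 1.15% of all promoters held an E2F word there.

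Other genes of the same pathways, listed without regard to their promoters, were looked up in the same way. Of 31 other replication promoters, 12 had an E2F word (38.7%) and 2 had a CHR word (6.45%). Of 36 other mitotic promoters, 3 had an E2F word (8.33%) and 27 had a CHR word (75%). CCAAT was found in 17 of 25 replication promoters (68%), in 15 of 17 mitotic promoters (88.2%) and in 36.6% of all, beside 48.4% of the other replication and 72.2% of the other mitotic promoters. The GC box GGGCGG was found in 72%, 70.6% and 61.8% of the replication, mitotic and all promoters. A match only describes the letters of the reference. A promoter was given for 17 of the 22 mitotic genes (77.3%) and for 76.7% of all protein-coding genes, under the 80% asked for to speak for a whole list, so the mitotic counts stand for those 17 genes and the background for the 15345.

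**Figure D1:**
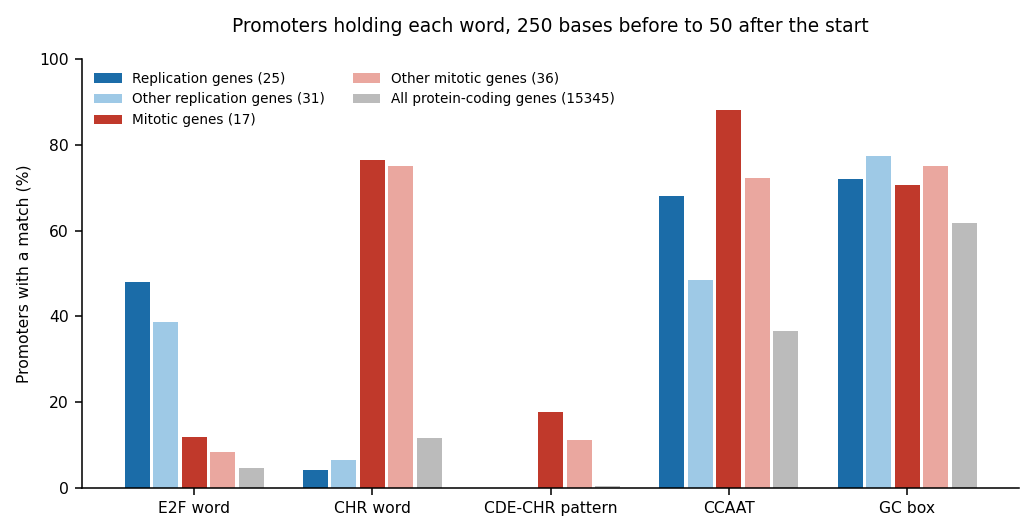
Share of promoters (vertical axis, percent) that held each word in 5 sets of genes, with the number of promoters looked up in the legend. E2F words stand out in both replication sets (48% and 38.7%) and CHR words in both mitotic sets (76.5% and 75%), beside 4.57% and 11.6% of all promoters.

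After peaks seen in a single nucleus were dropped, 162 nuclei had more than 300 peaks and passed, 83 on plate 1 and 79 on plate 2. They held between 345 and 15351 read pairs in features, with a median of 2029 on plate 1 and 2162 on plate 2. Some wells of a plate shared features, namely nuclei 37 to 48 and those numbered 36 higher, and nuclei 73 to 84 and those numbered 12 higher. Of the 25114 features seen in exactly 2 nuclei, 70.8% were seen in both wells of such a pair, and whether these were reads of 1 molecule was not tested. At the 60 genes, 125 of 687 gene openings (18.2%) were seen in both wells of such a pair, where an opening is a gene with a read pair in 1 nucleus. Only the 359 openings in wells that share features could be seen in a pair, and the other 328 lay elsewhere. Intervals below are exact 95% binomial intervals over nuclei, cover counting error only, and treat nuclei in paired wells as separate. Values over the 91 nuclei outside these wells are given for the groups. Among the 60 genes they are given for the highest and for every named gene whose share moved by over 1.5 times.

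A gene was called open in a nucleus when any of its features held at least 1 read pair. The 28 replication genes had a median open share of 7.10% of passing nuclei, the 10 regulators of 5.56% and the 22 mitotic genes of 5.56%, with genes without a feature ranked lowest. The median over all protein-coding genes was 1.85%. Among genes with a feature the medians were 9.26% for replication genes, 6.79% for regulators, 6.17% for mitotic genes and 5.56% for all genes. Of the 60 genes, 15 were open in at least 10% of passing nuclei (25%), where the background was 12%. Without the wells that share features it was 10 of 60 (16.7%), 4 replication genes, 2 regulators and 4 mitotic genes, where the background over the same 91 nuclei was 9.72%.

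**Figure D2:**
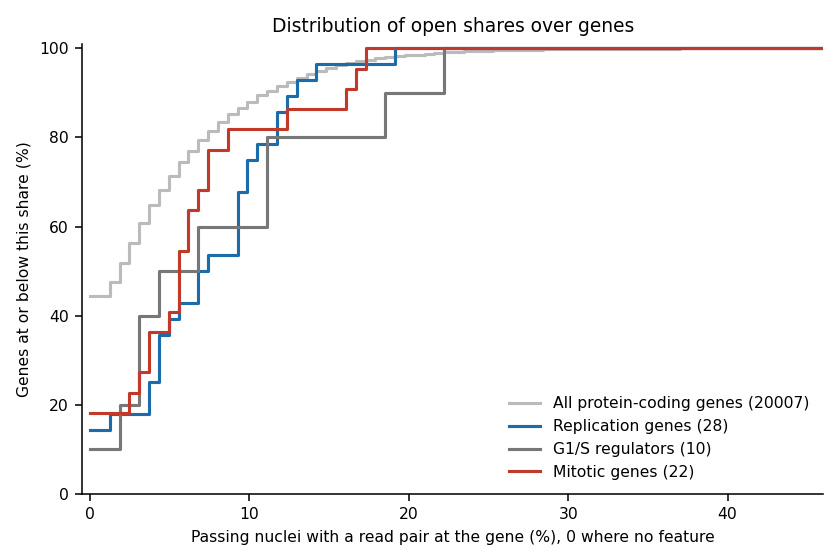
Percentage of genes (vertical axis) at or below each open share (horizontal axis, percent of 162 passing nuclei, 0 for genes without a feature). The curves of the 3 cell cycle groups lie to the right of that of all protein-coding genes past their medians (7.10, 5.56 and 5.56% against 1.85%). They cross that curve only near their highest shares, and they also cross each other.

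Among the replication genes, MCM3 was open most often. It encodes a subunit of the MCM helicase, and it was open in 14 of 83 nuclei on plate 1 (16.9%) and in 17 of 79 on plate 2 (21.5%), in all 19.1% (interval 13.4 to 26%). PCNA, the sliding clamp of the polymerases, was open in 12 and 11 nuclei (14.2%), and at its canonical start in 15 (9.26%). For both genes the intervals of the plates overlap.

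RRM1, the large subunit of ribonucleotide reductase, which makes deoxyribonucleotides, was open in 11 nuclei on plate 1 and 10 on plate 2 (13%). GMNN encodes geminin, which holds CDT1 in check after S phase begins, and was open in 8 and 12 nuclei (12.3%). GINS4 and RRM2 followed, each in 19 nuclei (11.7%), and ORC6 in 17 (10.5%). These 7 genes were the replication genes open in at least 10% of nuclei. Without the wells that share features, GINS4 was open in 6.59% of nuclei, RRM2 in 7.69% and ORC6 in 8.79%, and PCNA and GMNN in 13.2% each, so that 4 of the 7 reached 10%.

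CDC45, which joins the helicase with GINS, was open in 1 nucleus on each plate (1.23%, interval 0.15 to 4.39%). ORC1, the largest subunit of the origin recognition complex, and POLE, the catalytic subunit of the leading-strand polymerase, were each open in 2 nuclei on plate 1 and 4 on plate 2 (3.70%). MCM2 was open in 4 and 3 nuclei (4.32%), as were CDC6 in 4 and 3 and MCM5 in 3 and 4. All of these lay below the median of the replication genes. Outside the wells that share features, ORC1 was open in 6.59% of nuclei and CDC6 and POLE in 2.20% each.

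The MCM subunits assemble in equal number, yet their promoters were not seen equally often. MCM2, MCM3, MCM5, MCM6 and MCM7 each had a single feature of the same length, so their shares compare per length. MCM3 (interval 13.4 to 26%) lay above MCM2 and MCM5 (each 4.32%, interval 1.75 to 8.70%), MCM6 (4.94%, interval 2.16 to 9.50%) and MCM7 (5.56%, interval 2.57 to 10.3%), with no overlap of intervals. Without the wells that share features, MCM3 was open in 15 of 91 nuclei (16.5%, interval 9.53 to 25.7%), MCM6 in 1 nucleus (1.10%) and MCM2 and MCM7 in 5 each (5.49%, interval 1.81 to 12.4%). Then only the interval of MCM6 stayed apart from that of MCM3. MCM4 had a pair of features and was open in 16 nuclei (9.88%), and MCM10, which is no subunit of the ring but helps to activate it, in 11 (6.79%).

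The 6 genes of the origin recognition complex all had a feature, and apart from ORC1 their shares ran only from 7.41% (ORC4) to 10.5% (ORC6). ORC3 had the largest gap between plates among replication genes. It was open in 4 nuclei on plate 1 (4.82%, interval 1.33 to 11.9%) and in 11 on plate 2 (13.9%, interval 7.16 to 23.5%), and these intervals overlap. TYMS was open in 15 nuclei, GINS3 in 11 and GINS1 in 16. The 4 features of GINS1 lay at different starts, and at its canonical start the gene was open in 6 nuclei (3.70%). GINS1 was open in 5.49% of nuclei when the wells that share features were left out.

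The regulators reached the highest share of all 60 genes. CDK6, a kinase that pairs with D-type cyclins, was open in 20 of 83 nuclei on plate 1 (24.1%) and in 16 of 79 on plate 2 (20.3%), in all 22.2% (interval 16.1 to 29.4%). E2F3, an activating E2F factor, was open in 20 nuclei on plate 1 (24.1%, interval 15.4 to 34.7%) and in 10 on plate 2 (12.7%, interval 6.24 to 22%). Its difference of 11.4 percentage points toward plate 1 was the largest among the 60 genes, and the intervals overlap.

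Both genes had 5 features, so more sequence was counted. In the single feature seen in most nuclei, CDK6 was open in 24 nuclei (14.8%) and E2F3 in 22 (13.6%). At its canonical start CDK6 was open in 19 nuclei (11.7%). Over the 91 nuclei outside the paired wells, CDK6 was open in 23.1% of nuclei and E2F3 in 12.1%. Cyclin E2, CCNE2, which partners with CDK2, and CDK4 were each open in 18 nuclei (11.1%), CCNE2 in 8 and 10 and CDK4 in 7 and 11. At the other end stood CDC25A, a phosphatase that activates CDK2, with 1 and 2 nuclei (1.85%). E2F1 and CDK2 were each open in 3 and 2 nuclei (3.09%), CCNE1 in 5 and 2 (4.32%) and CCNA2 in 6 and 5 (6.79%). Without the wells that share features, CDK4 was open in 6.59% of nuclei, CCNE2 in 8.79%, and CDK2 and CDC25A in 1 nucleus each (1.10%).

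Among the mitotic genes, TTK stood first. This kinase of the spindle checkpoint, also called MPS1, was open in 14 nuclei on plate 1 (16.9%) and in 14 on plate 2 (17.7%), in all 17.3% (interval 11.8 to 24%), through a single feature. CENPF was open in 11 and 16 nuclei (16.7%) and CDC25C in 14 and 12 (16%), each through 4 features. The feature of CENPF seen most often gave 13.6% and that of CDC25C 13%, so TTK led per length. MAD2L1, the checkpoint protein MAD2, was open in 7 nuclei on plate 1 (8.43%) and 13 on plate 2 (16.5%). These 4 were the mitotic genes open in at least 10% of nuclei, also without the wells that share features, where TTK was open in 14.3%, CENPF and CDC25C in 12.1% and MAD2L1 in 11%.

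The lowest shares among mitotic genes with a feature were those of PLK1, CCNB2, AURKA and BUB1B. PLK1, the Polo kinase, was open in 2 nuclei on each plate (2.47%, interval 0.677 to 6.20%). CCNB2 was open in 3 and 2 nuclei (3.09%), and AURKA, a kinase of the centrosomes, and BUB1B, a checkpoint gene, in 3 on each plate (3.70%). CCNB1 was open in 9 nuclei (5.56%) and its partner CDK1 in 14 (8.64%). Over the same 91 nuclei, CDK1 and AURKA were open in 4.40% of nuclei each, CCNB1 in 6.59% and BUB1 in 3.30%. The remaining genes BUB1, CDC20, CENPA, CENPE, KIF11, KIF23, MKI67 and TPX2 ran from 4.94% to 7.41%, with KIF11 and KIF23 highest. At the canonical start KIF11 was open in 2.47% of nuclei and KIF23 in 7.41%.

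**Figure D3:**
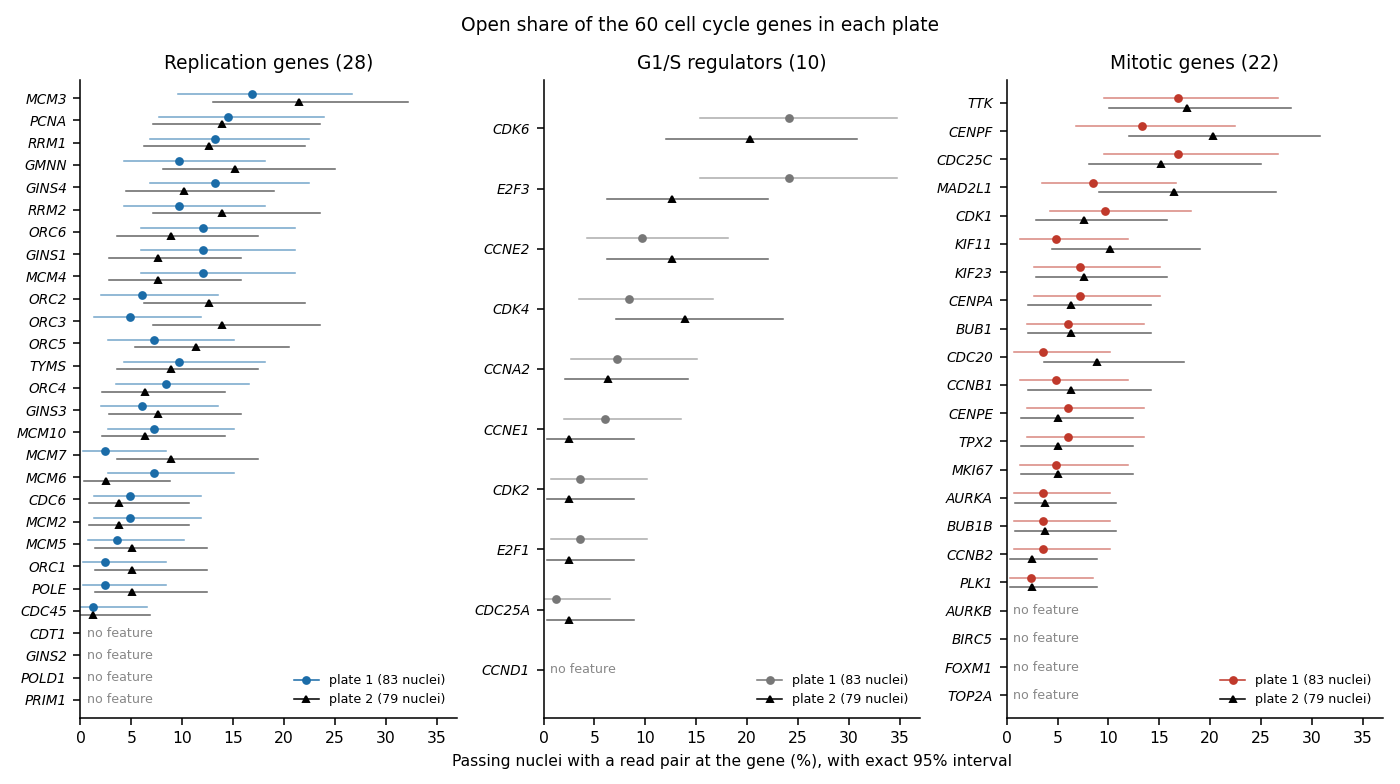
Open share of each of the 60 genes (horizontal axis, percent of passing nuclei) on plate 1 (circles, 83 nuclei) and plate 2 (triangles, 79 nuclei), with exact 95% intervals as lines, sorted within each group by the share over both plates. The plate intervals of every gene with a feature overlap, and 9 genes have no feature.

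For 0 of the 51 genes with a feature did the intervals of the plates fail to overlap, where the background over all 11123 genes with a feature was 0.261%. The share was higher on plate 2 for 27 genes and on plate 1 for 24. Among all genes with a feature it was higher on plate 2 for 6399 and on plate 1 for 4724. A share of 0 of 51 genes cannot be read against a background that low.

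The 9 genes without a feature came from each stage of the cycle. They were the licensing factor CDT1, GINS2, POLD1, the catalytic subunit of polymerase delta, and PRIM1, the catalytic subunit of primase, then cyclin D1 (CCND1), and in mitosis AURKB and BIRC5, which both belong to the chromosomal passenger complex, TOP2A, which untangles chromosomes, and FOXM1, a transcription factor of mitotic genes. Because features are peaks called on all nuclei together, read pairs at these starts were not counted, and no level can be given. CDT1 and GINS2 had E2F words and TOP2A had CHR words in their promoters all the same. The nearest feature lay 2802 bp from a start of CDT1, 4702 bp from GINS2 and at most 59353 bp away (POLD1).

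The most distant feature counted lay 595 bp from a start of ORC5 and was open in 3 nuclei, and the nearest feature not counted lay 1177 bp from a start of CCNE1 and was open in 1 nucleus. Of the 88 features, 73 contained a start and 15 lay beside it. The feature seen most often contained a start in 49 of 51 genes (96.1%) and in 85% of all genes with a feature. Its center was a median of 104 bp from the nearest start, against 123 bp for all genes.

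**Figure D4:**
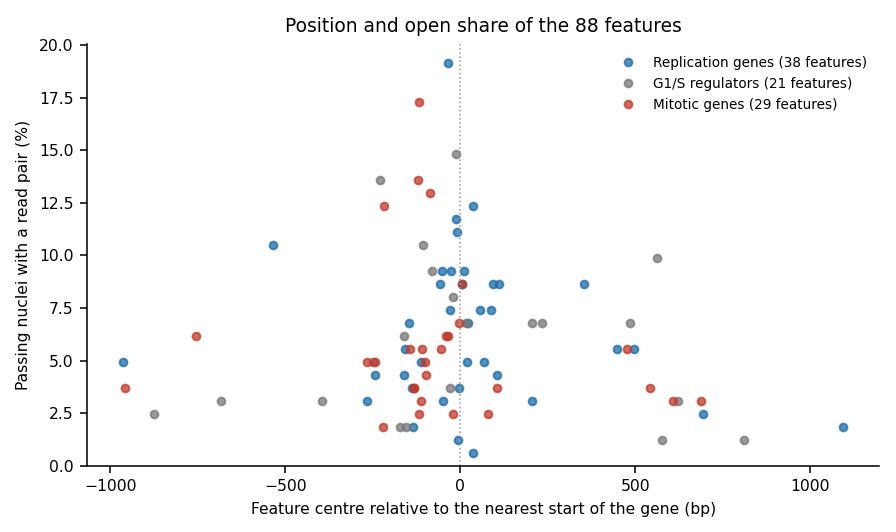
Distance in bp of each feature's center from the nearest start of its gene (horizontal axis, negative upstream) and its open share (vertical axis, percent of 162 passing nuclei) for the 88 features. The features with the highest shares, at MCM3 (19.1%) and TTK (17.3%), sit close to the start.

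Replication genes had the higher median than mitotic genes on both plates, 6.63% against 4.82% on plate 1 and 7.59% against 5.70% on plate 2. Over both plates the ratio of medians was 1.28. Counting only the feature seen most often gave 6.17% against 5.56%, and leaving out the wells that share features gave 6.59% against 5.49%, with 4.95% for the regulators. The other genes of these pathways went the opposite way, with medians of 3.70% for 36 other replication genes and 5.86% for 40 other mitotic genes, and 6 and 13 of them open in at least 10% of nuclei (3 and 10 without the wells that share features). Of the other replication genes 26 of 36 had a feature, and of the other mitotic genes 33 of 40.

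Nuclei with more read pairs had more of these genes open. In the 54 shallowest nuclei the median was 1.85% for replication genes and 0 for mitotic genes, in the 54 of middle depth it was 3.70% for both groups, and in the 54 deepest 13.9% for both. In the deepest nuclei CDK6 was open in 23 (42.6%), E2F3 in 17 (31.5%), and MCM3 and TTK in 16 each (29.6%).

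A passing nucleus had a median of 1 replication gene and 1 mitotic gene open, at most 11 and 8. In 82 of 162 nuclei at least 1 gene of each group was open, in 36 a replication gene but no mitotic gene, in 16 a mitotic gene but no replication gene, and in 28 neither. Of these 28, 7 had a regulator open and 21 none of the 60 genes. Thinned to 600 read pairs, 146 nuclei had 1.76% of replication genes and 1.71% of mitotic genes open, counted over genes and nuclei together. At 1000 read pairs, 126 nuclei had 2.83% and 2.74%.

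**Figure D5:**
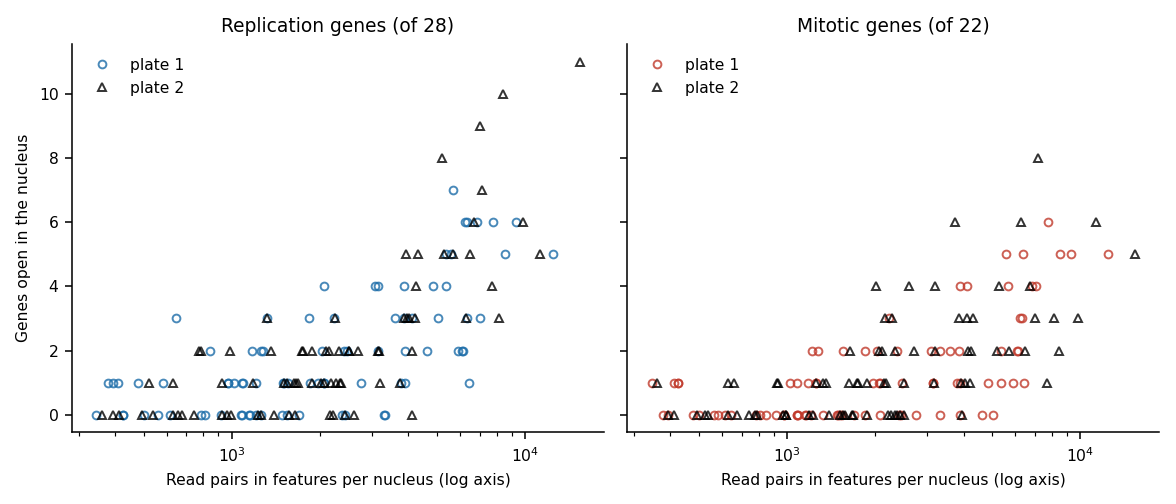
Number of replication genes (left) and mitotic genes (right) open in each of the 162 passing nuclei (vertical axis) against its read pairs in features (horizontal log axis), for plate 1 (circles) and plate 2 (triangles). The counts climb with depth to 11 and 8 genes, and most shallow nuclei have 0 or 1.

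Genes with and without the promoter words did not fall into separate ranges of openness. Replication genes with an E2F word (12 of 25) had a median share of 5.25% and those without 9.26%. Mitotic genes with a CHR word (13 of 17) had 6.79%, and the few without had 5.56%. MCM3 held E2F words and PCNA, RRM2 and GMNN held none, though all 4 were open in more than 10% of nuclei. At their canonical starts alone, PCNA and RRM2 were each open in 9.26%. CENPF and CDC25C, with the CDE-CHR pattern, lay near the top of the mitotic genes, while PLK1 and CCNB2, with a CHR word close to the start, lay at the bottom. CDK1, which also held the pattern, was open in 8.64% of nuclei, and in 4.40% outside the wells that share features. Genes with no feature are in these medians as the lowest.

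Many replication genes shared a feature with a neighbor. For 11 of the 24 with a feature (45.8%), a start of another protein-coding gene lay within 1000 bp of any of the gene's features. In each case it was on the opposite strand. Features away from the canonical start were counted too, as for PCNA, GINS1 and KIF11. The shared feature therefore need not be the canonical promoter. The partners were TPRA1 for MCM2, PRKDC for MCM4, AP4M1 for MCM7, ABHD12 for GINS1, PRPF38A for ORC1, RARS2 for ORC3, MBD5 for ORC4, VPS35 for ORC6, UFD1 for CDC45, CDS2 for PCNA and PXMP2 for POLE. Among mitotic genes it was 4 of 18 (22.2%), of which CDC25C with FAM53C, AURKA with CSTF1 and KIF11 with IDE were on opposite strands and CENPA with SLC35F6 was not. The share over all genes with a feature was 28.3%, and 23% had a partner on the opposite strand. Read pairs in such a feature cannot be told apart between the partners. Replication genes with a partner had a median share of 7.41% and those without 9.26%.

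Near-haploid cells carry a single copy of most of the genome before they replicate it. Per open nucleus, the feature seen most often held 1.21 read pairs at replication genes, 1.22 at mitotic genes and 1.24 over all genes. The highest values were at CDC25A (1.67), CDC45 (1.50) and AURKA (1.50), which rest on 3, 2 and 6 nuclei. More than 1 read pair was seen in 16.7% of the openings of replication genes and in 18.2% of those of mitotic genes, where it was 17.9% over all genes.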

How the data were processed

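Plate-based snATAC-seq of HAP1 cells gave 192 nuclei, 96 per plate. The authors aligned trimmed reads to hg38 with bowtie2, removed mitochondrial, low-quality and duplicate reads, called peaks with MACS2 on all nuclei pooled and widened them to 1001 bp. The authors counted the read pairs of every nucleus in each feature with featureCounts (1.6.0), and these counts were deposited without normalization.

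From the counts, features seen in more than 1 nucleus (77053) and nuclei with more than 300 of them were kept, after the study's Methods, and the matrix was binarized. Starts came from GENCODE 44. All 60 genes were accounted for. In each group the 4 highest and 4 lowest shares were named, with genes lacking a feature, the 3 largest plate differences, genes with 3 or more features and the 3 highest read pairs per open nucleus. The named rule asked for longer promoter stretches, but these overlap first exons of other transcripts, so at most 30 bases were printed. The members and gene lists were chosen with earlier results of these data known. No test was made. Scripts were checked on simulated counts with 200 changed genes. All 15345 RefSeq promoters equal the hg38 reference used. Computations used pandas 2.3.3, SciPy 1.17.1 and NumPy 2.4.6 under Python 3.11.15, with figures drawn in matplotlib 3.10.9. Shares have exact (Clopper-Pearson) 95% intervals, and read pairs carry no molecular identifiers.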

Additional observations from a re-analysis of the deposited data

How the results depend on the processing

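The median of the replication genes stayed above that of the mitotic genes in all 18 alternatives. Splits by depth and the other genes of the pathways were not among these. The medians were equal in the nuclei of middle depth (3.70%) and in the deepest nuclei (13.9%). The other replication and other mitotic genes went the opposite way (3.70 against 5.86%). Over the 18 alternatives the ratio lay between 1.11 and 2 (1.28 as reported). The ratio was 1.5 with features within 2000 bp, 1.11 with the single feature seen in most nuclei, 1.17 with nuclei of more than 1000 peaks, 2 when a nucleus needed at least 2 read pairs, 1.17 with a shared feature counted only in the lower-numbered well of a pair and 1.6 on read pairs per 10000. These shifts exceed the difference between the pooled ratio and that of either plate alone (1.38 and 1.33, an alternative chosen after seeing the data), and the cause was not tested. The medians themselves fell to 1.23 and 0.617% with at least 2 read pairs, so the ratio of 2 rests on very few nuclei. They fell to 1.37 and 1.03% after thinning to 600 read pairs. Both settings remove openings by construction. In the other 15 alternatives each median stayed within 3.89 to 12.6% for replication genes and 2.57 to 10.3% for mitotic genes. These are counting intervals of a single gene of about that share, not the error of a median over genes. They are wide, so staying within them says little about stability. Between 50 and 51 genes had a feature and 12 to 15 were open in at least 10% of nuclei under every distance and choice of starts tried (10 without the wells that share features, a count added after seeing the data), and 0 genes separated the plates with every nucleus, after thinning or without those wells. Over the whole feature in place of the promoter, which also changes the genes looked up (21 replication genes instead of 25, 8940 genes in all instead of 15345), CHR words were in 42.9% of the replication genes instead of 4%, where the share over all genes was 33.4% instead of 11.6%. Mitotic genes had 86.7%. E2F words were in 52.4% of replication and 13.3% of mitotic genes, where the share over all genes was 12.7% instead of 4.57%. The median of member genes open per nucleus was 1 at 600 read pairs and 2 at 1000, which deeper thinning gives by construction. No paired analysis was possible because no test was run, and the numbers of the cells mark no pairing between plates.

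Nuclei are shallow, so a closed gene in 1 nucleus is mostly a gene not sampled, and shares of a few percent rest on fewer than 10 nuclei. Both plates hold labeled and unlabeled nuclei of a single pool.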

Other observations

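The other genes of the pathways held some of the highest shares, and the ones named here were chosen after their values were seen. Among 40 other mitotic genes, KIF18A, a kinesin that dampens chromosome movement, and CDCA2, which brings a phosphatase to chromosomes as cells leave mitosis, were each open in 38 of 162 passing nuclei (23.5%) against 22.2% for CDK6, a difference within the counting error. CDCA3 was open in 34 nuclei (21%) and HMMR, a spindle protein, in 30 (18.5%). The condensin subunits SMC2 and SMC4 were open in 27 nuclei each (16.7%). Among 36 other replication genes, RPA3, the small subunit of the single-strand binding protein, was highest with 32 nuclei (19.8%), while RPA1 and RPA2, the other subunits, had no feature. DTL, a ubiquitin ligase adaptor that marks CDT1 for degradation, and DBF4, the activator of the CDC7 kinase, were open in 26 nuclei each (16%). KIF18A, CDCA2, CDCA3, HMMR, SMC4, RPA3, DTL and DBF4 each shared a feature with another protein-coding gene. In the single feature seen in most nuclei the share was 21% for KIF18A, 15.4% for CDCA3 and 16% for RPA3. It was 14.8% for DBF4, 16% for SMC2 and 10.5% for SMC4, and unchanged for CDCA2, HMMR and DTL. Values outside the wells that share features are not given for them.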
